A study of Mus musculus with 2 samples.

Results

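Ccl5-high mature dendritic cells (DC) were single cells with a UMI of Ccr7 and of Fscn1, a deposited Ccl5 value of at least 2.5 and no UMI of Cd3e, Cd79a or Siglech, and 713 of the 12458 cells in the series met this rule (5.72%). A UMI is a tag that counts 1 captured transcript, and the deposited values are natural logs of 1 + UMIs per 10000 UMIs of the cell, so the Ccl5 limit is 11.2 UMIs per 10000. The cells came from 4 C57Bl6 mice carrying MC38-OVAdim tumours, a colon carcinoma line that expresses a form of ovalbumin, injected under the skin of the flank. Havcr2, which encodes the receptor TIM-3, had been targeted in KO1 and KO2, and WT1 and WT2 were Havcr2 fl/fl controls; the sources used here do not give the promoter that drove the deletion, the cells it took place in, or the mice's age. The 12 samples are the tumour, the lymph node that drains it (dLN) and a lymph node that does not (ndLN) of every mouse, each sorted for CD45 with a further enrichment of DC and sequenced from the 5′ ends of transcripts. Each of 2 droplet channels held 1 KO and 1 WT mouse, and the number in a mouse's name is its channel.

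Mature DC, also called migratory or regulatory DC, arise when a DC that has taken up antigen turns on Ccr7, the receptor for the chemokines that lead it through lymph vessels into the T cell zone. They carry the actin-bundling protein fascin (Fscn1), present antigen, and combine costimulatory molecules with checkpoint ligands. Ccl5, also known as RANTES, is a chemokine that attracts T cells, NK cells and monocytes. Ccl22 and Ccl17 attract cells with Ccr4, among them regulatory T cells. TIM-3 is an inhibitory receptor of T cells that cDC1, the cross-presenting conventional DC, also carry.

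The members numbered 9 in KO1, 1 in KO2, 30 in WT1 and 3 in WT2 in tumour. In dLN there were 31 in KO1, 19 in KO2, 191 in WT1 and 138 in WT2. In ndLN there were 51 in KO1, 16 in KO2, 101 in WT1 and 123 in WT2. Node samples thus held 670 of the 713 cells and 553 of these were from WT mice. Members made up 54.4% of all mature DC in tumour (43 of 79), 89.4% in dLN (379 of 424) and 92.4% in ndLN (291 of 315), where a mature DC is a cell that met the rule whatever its Ccl5.

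The samples held 3031124 to 28498154 UMIs over all their cells. The members' median depth was 5563 to 9049 UMIs a cell in the 8 node samples and 11392.5 to 33720 in the 4 tumour samples, and intervals and limits given here cover counting error only. Tumour members fell into separate sets by the macrophage complement genes C1qa, C1qb and C1qc. In 27 cells the 3 genes together had at most 5.54 UMIs per 10000, and in 16 cells they had at least 117. The C1q-rich cells were 7 of 9 in KO1, 1 of 1 in KO2, 7 of 30 in WT1 and 1 of 3 in WT2, and their median depth was 24279.5 UMIs, against 9410 in the other tumour members. In nodes 2 of 379 dLN and 3 of 291 ndLN members had 20 or more C1q UMIs per 10000. The rule alone names all these cells mature DC. Whether the C1q-rich ones are dendritic cells alone was not tested, and the tumour counts and shares of mature DC include them unless stated. Across channels 65 barcodes occurred more than once, and 6 members carried one of them.

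Havcr2 (chr11:46454931-46481255, GRCm38.p6, protein coding) was nearly undetected in the node members of both genotypes. In nodes 0 of 117 KO members had a UMI, which allows a share of up to 2.56%, against 6 of 553 WT members (1.08%). In tumour 2 of 10 KO members and 3 of 33 WT members had one. The labels were checked in cDC1-like cells, defined by a UMI of both Xcr1 and Clec9a without Ccr7: Havcr2 was found in 11 of 197 KO cells (5.58%) and in 159 of 199 WT cells (79.9%). The KO labels thus held in a class that carries Havcr2, and in Ccl5-high mature DC of the nodes a difference was not detectable at this depth.

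The rule's Ccl5 limit passed through a sparse stretch of the values. The 3 members nearest to it had natural log values of 2.52, 2.56 and 2.61, and the nearest mature DC outside had 2.49, 2.41 and 2.36. Between 2 and the limit there were 14 mature DC, between the limit and 3 there were 19, and in 39 mature DC Ccl5 was at 0. The members' quartiles were 92.3, 199 and 394 Ccl5 UMIs per 10000, with a range of 11.4 to 2069. Ccl5 lies at chr11:83525778-83530518 and Ccr7 at chr11:99144199-99155077 in GRCm38.p6, both protein coding.

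The sequences before the start of a pair of genes are shown because these genes had, after Ccl5, the largest differences between Ccl5-high and Ccl5-low mature DC. Epsti1 is an interferon-responsive gene (chr14:77904239-78002656), and AW112010 is annotated as a long non-coding RNA (chr19:11047612-11050566). The 250 bases before each start were taken from RefSeq, GRCm38.p6. They were searched on both strands for GGGANNTTC, a pattern like the sites of NF-kB, and for GAAANNGAA, a pattern like interferon-stimulated response elements. Capitals mark a match.
AW112010, chr19:11050567-11050816, minus strand: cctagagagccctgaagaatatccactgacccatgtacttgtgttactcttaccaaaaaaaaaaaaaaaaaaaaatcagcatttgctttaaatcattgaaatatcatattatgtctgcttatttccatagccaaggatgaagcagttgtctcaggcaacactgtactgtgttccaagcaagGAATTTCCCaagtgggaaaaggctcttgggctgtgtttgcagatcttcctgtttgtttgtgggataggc
Epsti1, chr14:77903989-77904238, plus strand: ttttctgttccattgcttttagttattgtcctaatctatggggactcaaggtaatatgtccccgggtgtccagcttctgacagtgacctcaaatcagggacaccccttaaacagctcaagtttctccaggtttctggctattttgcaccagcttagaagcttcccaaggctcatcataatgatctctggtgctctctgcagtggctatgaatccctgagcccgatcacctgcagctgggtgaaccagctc

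The capitals in AW112010 are the NF-kB-like pattern read on the opposite strand, 69 to 61 bases before the start, and the window of Epsti1 held neither pattern. Of all 32851 RefSeq promoters of this length, 1061 held the NF-kB-like pattern (3.23%) and 2342 the interferon-like pattern (7.13%). Among the 15 genes with the largest positive difference described next, 12 had an entry, with 14 promoters in all, of which 1 held the NF-kB-like and 0 the interferon-like pattern. A match is a run of letters and was not tested as a site.

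Against Ccl5-low mature DC, of which the 12 samples held 105, the members had more transcripts of the mature DC programme and of MHC class I presentation. They had fewer of MHC class II. Levels here are means over the cells of a sample in UMIs per 10000, and differences are of mean log2(1 + UMIs per 10000). The comparison covers the 8 samples with at least 5 cells of each kind, among them the tumours of KO1 and WT1. It is a description, since the rule chose the cells by Ccl5, and no test was made. Over all samples, 21 of the 105 Ccl5-low cells had 20 or more C1q UMIs per 10000, against 21 of the 713 members. A UMI of Lyz2 or of a C1q gene was found in 66 Ccl5-low cells and 247 members. Of 7305 genes with a UMI in at least 5% of the members, 226 were higher (3.09%) and 105 lower (1.44%) in all 8 samples, and the median difference was -0.01.

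Ccl5 itself differed by 5.83, with a median of 218 UMIs per 10000 in members, against 2.40 in Ccl5-low cells, and this is what the rule set. Epsti1 differed by 2.85, with medians of 68.2 UMIs in members and 5.92 in Ccl5-low cells. AW112010 differed by 2.84, with medians of 32.6 and 3.40 UMIs in members and Ccl5-low cells. Zmynd15, a zinc finger gene of the mature DC programme, differed by 1.97. Fscn1, a rule gene, differed by 1.90. The other 10 genes were Txndc17 (1.72), a thioredoxin-like reductase, the phospholipase gene Pla2g16 (1.62), Net1 (1.55), Crip1 (1.54), the serpin gene Serpinb6b (1.49), the cholesterol carrier gene Npc2 (1.43), the proteasome activator gene Psme1 (1.40), Tmem123 (1.38), Mfge8 (1.31), which binds dying cells, and Gadd45b (1.30). In each of these genes the difference was above 0 in every one of the 8 samples.

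The genes with the largest negative difference were led by MHC class II. H2-Ab1, a class II beta chain, differed by -2.84, with medians of 4.63 UMIs per 10000 in members and 48.1 in Ccl5-low cells. Cd74, the invariant chain that guides class II, differed by -1.58, with medians of 82.0 and 341.8 UMIs. H2-DMa, which loads peptide on class II, differed by -1.29. The actin-bundling gene Lcp1 (-1.44), the glutathione peroxidase gene Gpx1 (-1.42), the actin regulator Coro1a (-1.29), the lysosomal protease gene Ctsc (-1.06) and Tmsb10 (-0.98) followed. Gpr183, the oxysterol receptor that positions DC at follicle borders, differed by -0.77, and Ier2, Gm2a, Ifitm2, Rpl12, Rap1a and Lgals1 by -0.91 to -0.72.

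**Figure D1:**
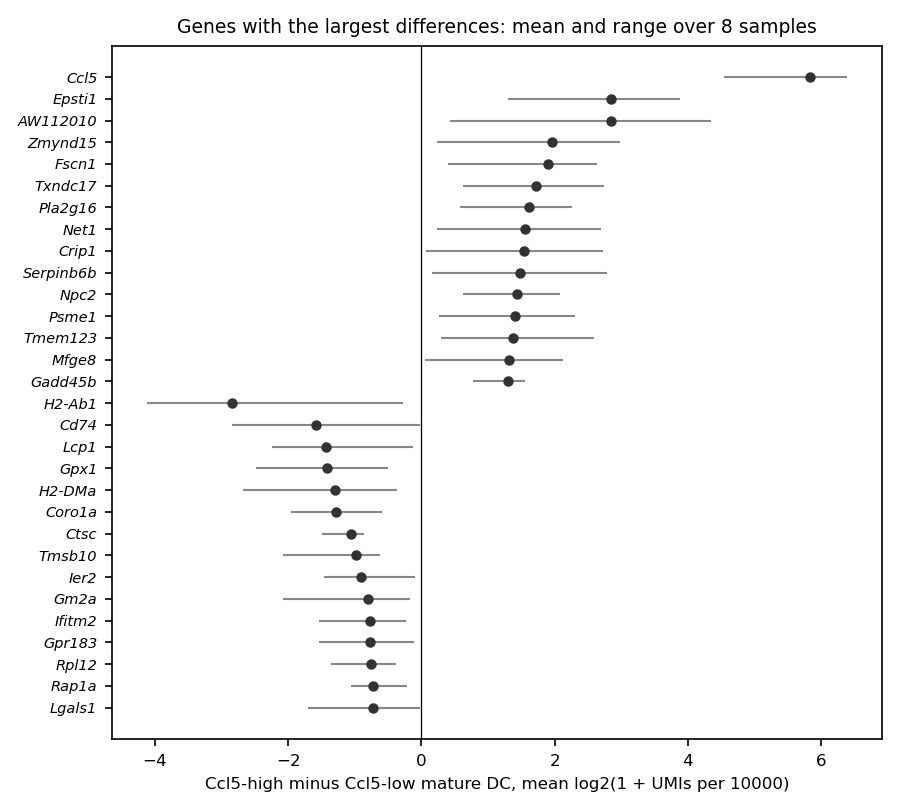
Difference between Ccl5-high and Ccl5-low mature DC in mean log2(1 + UMIs per 10000) for the 15 genes with the largest positive and the 15 with the largest negative difference of 1 sign in all 8 samples. Points are means and lines the range over samples; Ccl5 lies at 5.83 and H2-Ab1 at -2.84, and no line crosses 0.

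By list, 36 of 39 detected genes of the mature DC programme had a positive difference (13 in all 8 samples, median 0.64), though the list holds rule genes. Of 21 MHC class I presentation genes 19 were above 0, 8 of them in all 8 samples, with a median of 0.71. Of 14 class II genes 11 were below 0, 3 of them in all 8 samples, with a median of -0.66. Stress and immediate early genes were below 0 in 23 of 25 (4 in all 8 samples, median -0.30), and mitochondrial genes in 12 of 13 (median -0.21). Interferon gamma response genes were above 0 in 13 of 20, type I interferon-stimulated genes in 8 of 22 and chemokine ligands in 7 of 12. The 7 cDC2 markers detected were all below 0.

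Beside other DC of the nodes, the members had higher levels of several chemokine and cytokine ligands. Medians over samples are given for the members of 8 node samples and for Ccl5-low mature DC in the 6 node samples with enough cells, then for cDC1-like cells and for cDC2-like cells, defined by a UMI of both Cd209a and Clec10a without Ccr7. Ccl22 was at 10.4 UMIs per 10000 in members, 1.65 in Ccl5-low cells and next to none in both other classes, and 84.5% of node members had a UMI. In node B cells, which should lack it, 0.526% had a Ccl22 UMI, at a median depth of 2958 UMIs against 7683 in node members. Ccl17 was at 1.42 in members and 0.18 in Ccl5-low cells, in 36.7% of node members.

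Cxcl16, a membrane-bound chemokine for cells with Cxcr6, was at 9.92 UMIs in members, 4.45 in Ccl5-low cells, 1.57 in cDC1-like and 0.42 in cDC2-like cells. Clu, which encodes the chaperone clusterin, was at 6.92 in members and 1.66 in Ccl5-low cells. Among cytokine genes, Il15, which sustains NK and memory T cells, was at 2.74 in members and 0.75 in Ccl5-low cells and was found in 77.2% of node members. Il12b, the p40 chain of interleukin 12, was at 1.19 in members and 0.10 in Ccl5-low cells and was found in 23.6% of node members. Ebi3, a chain of interleukin 27, was at 1.40 in members and 0.85 in Ccl5-low cells. Il1b went the other way, with 0.49 in members, 4.55 in Ccl5-low cells, 2.51 in cDC1-like and 8.53 in cDC2-like cells.

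Receptors and costimulatory genes were not uniformly higher. Ccr7 was at 16.9 UMIs per 10000 in members and 20.4 in Ccl5-low cells, and Fscn1 at 72.8 and 24.3; both are rule genes. Cd40, which receives T cell help, was at 4.34 in members and 1.30 in Ccl5-low cells, whereas the maturation marker Cd83 was at 4.56 in members and 10.8 in Ccl5-low cells. The B7 gene Cd86 was at 0.52 in members and 0.49 in Ccl5-low cells, and Cd274, the gene of PD-L1, at 0.49 in members and 0.58 in Ccl5-low cells. For these last 2 genes the ranges over samples of both kinds of cells overlapped.

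Of the transcription factors, Relb, the NF-kB subunit of mature DC, was at 8.72 UMIs in members, 5.00 in Ccl5-low cells, 0.63 in cDC1-like and 0.80 in cDC2-like cells. Batf3, a factor of the cDC1 lineage, was at 3.17 in members, 2.40 in Ccl5-low cells, 1.94 in cDC1-like and 0.46 in cDC2-like cells. Irf8, which cDC1 need, was at 4.33 in members, 1.57 in Ccl5-low cells, 19 in cDC1-like and 0.16 in cDC2-like cells. Id2 was at 10.1 in members, 6.19 in Ccl5-low cells, 7.19 in cDC1-like and 0.17 in cDC2-like cells. Surface markers of either lineage were scarce in the members: a UMI of both Xcr1 and Clec9a was found in 2 of 713 cells and of both Cd209a and Clec10a in 0, which allows a share of up to 0.421%.

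In antigen presentation the classes differed in opposite directions for the MHC classes. B2m, the light chain of class I, was at 73.6 UMIs in members, 39.7 in Ccl5-low cells, 14.7 in cDC1-like and 20.8 in cDC2-like cells. The immunoproteasome gene Psmb8 was at 19.1 in members and 6.34 in Ccl5-low cells. H2-Ab1 was at 3.17 in members, 55.8 in Ccl5-low cells, 92.0 in cDC1-like and 99.7 in cDC2-like cells. These are transcripts, and surface protein was not measured.

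**Figure D2:**
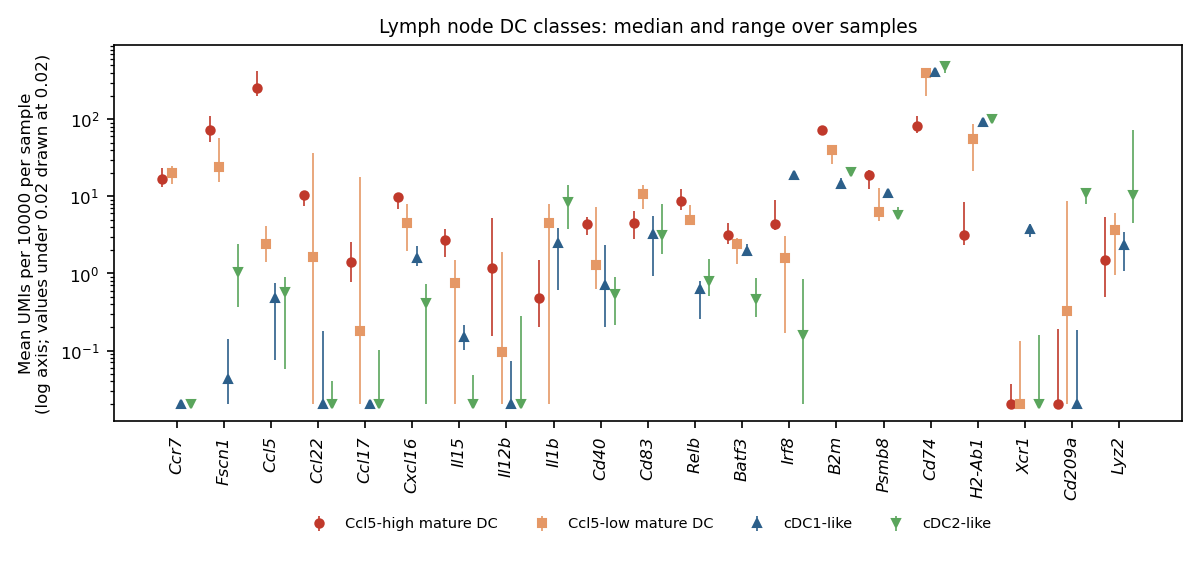
Mean UMIs per 10000 per sample (log axis) of 21 genes in 4 DC classes of the lymph nodes; points are medians and lines ranges over samples, and levels under the lowest value of the axis are drawn at it. Ccl5-high cells lie above the other classes in Ccl22, Cxcl16, Il15, Relb and B2m by their medians (10.4, 9.92, 2.74, 8.72 and 73.6) and below them in H2-Ab1 (3.17).

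Of the markers of other cells, those of T and B cells were scarce, though the rule itself left out cells with Cd3e or Cd79a. The most frequent marker of the macrophage list was Lyz2, and that of the plasmacytoid DC (pDC) list was Bst2. Of 13 T cell markers measured the most frequent was Cd8a, in 3.65% of members, and of 8 B cell markers it was Cd79b, in 2.10%, with 3 of the 8 at 0. The NK cell list had 3 of 12 markers at 0, and Klrk1 was found in 14.0% of members. Of 8 Langerhans and skin migratory DC markers 4 were found in under 1% of members, and the most frequent was Mical3 (33.7%). Of this list, Cd207 and Epcam were found in 10.0% and 16.4% of node members, and both in 36 of 670 cells (5.37%). Of 9 pDC markers measured 5 were found in under 1% of members, 1 of them at 0. Bst2, which interferon also induces, was found in 70.0% of members. Lyz2, a lysozyme gene of macrophages, was found in 23.3% of members, and 247 of the 713 had a UMI of Lyz2 or of a C1q gene. Macrophage markers, 12 of 12 measured, summed to 1.12 to 7.10 UMIs per 10000 in node samples. In tumour they summed to 264 and 321 in KO1 and KO2 and to 71.2 and 66.2 in WT1 and WT2.

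Within single libraries AW112010, B2m, Psme1 and Epsti1 were among the genes that went with Ccl5 from cell to cell. Members with at least 3000 UMIs in the 4 WT node samples were used. They numbered 173 in WT1 dLN, 124 in WT2 dLN, 89 in WT1 ndLN and 99 in WT2 ndLN. Pearson correlations of the log levels with Ccl5 were computed over these cells for 3468 genes. These are descriptions across cells that share a library, a depth and a total. AW112010 correlated with Ccl5 at 0.51 to 0.65, B2m at 0.45 to 0.58, Psme1 at 0.42 to 0.48 and Epsti1 at 0.33 to 0.50. Ubb (0.44 to 0.56), Pcbp2 (0.39 to 0.58), Fau (0.37 to 0.44) and Pla2g16 (0.36 to 0.51) had lowest values above that of Epsti1. Ccl5 is a rule gene, so the cells had already been cut on it. The cytoskeletal gene Pfn1 was at -0.50 to -0.44, the calcium-binding S100a4 at -0.65 to -0.42 and the fatty acid carrier Fabp5 at -0.51 to -0.32. Ccl22 had next to no relation with Ccl5 (-0.14 to -0.03), nor had Il12b (-0.15 to 0.02), whereas Ccl22 went with Ccl17 (0.30 to 0.45) and with Fscn1 (0.33 to 0.49).

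The first question of the design is whether the loss of TIM-3 changed the number of these cells. They made up a smaller share of all sorted cells in both KO mice than in both WT mice in each node, and the exact permutation test cannot pass with 2 mice a group. In dLN the share was 3.05% (95% exact binomial interval 2.08 to 4.29) in KO1 and 1.30% (0.787 to 2.03) in KO2, against 16.8% (14.6 to 19.1) in WT1 and 13.1% (11.1 to 15.3) in WT2. The means were 2.17% ± 1.23 in KO and 14.9% ± 2.61 in WT (SD, n = 2 each), a difference of -12.7 percentage points. The groups did not overlap, and the two-sided exact permutation p was 0.33, the smallest that 2 mice against 2 allow.

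In ndLN the share was 8.89% (6.69 to 11.5) in KO1 and 1.64% (0.938 to 2.64) in KO2, against 13.4% (11.1 to 16.1) in WT1 and 12.8% (10.8 to 15.1) in WT2 (exact permutation p = 0.33). The KO values lay below the WT values, and KO1 lay nearer to the WT mice than to KO2. The difference was -7.85 percentage points, and it was -4.22 without KO2. In tumour it was 0.665% (0.304 to 1.26) in KO1 and 0.211% (0.00535 to 1.17) in KO2, against 1.77% (1.20 to 2.52) in WT1 and 0.299% (0.0617 to 0.872) in WT2, and the groups overlapped (exact permutation p = 0.667). Without WT1 the tumour difference turned to 0.139 percentage points. An alternative added after the data were seen left out cells with 20 or more C1q UMIs per 10000. The tumour shares were then 0.148% and 0% in KO1 and KO2, against 1.36% and 0.199% in WT1 and WT2, without overlap. The members left numbered 2 and 0 in KO and 23 and 2 in WT. The DC-enriching sort can set such shares, and its gates are not known here.

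The other DC classes of dLN were not lower in both KO mice than in both WT mice, and the difference from the Ccl5-high cells was not tested. Ccl5-low mature DC were 1.08% and 0.686% of dLN cells in KO1 and KO2, against 1.14% and 1.04% in WT1 and WT2. The cDC1-like cells were 5.89% and 3.02% in KO and 3.60% and 1.42% in WT, and the cDC2-like cells 3.05% and 1.65% in KO and 1.23% and 0.947% in WT. The cDC1-like shares overlapped between genotypes and the cDC2-like shares were higher in both KO mice.

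Among mature DC alone, the Ccl5-high share was again lower in KO nodes. In dLN it was 73.8% (58 to 86.1) in KO1 and 65.5% (45.7 to 82.1) in KO2, against 93.6% (89.3 to 96.6) in WT1 and 92.6% (87.2 to 96.3) in WT2 (exact permutation p = 0.33). In ndLN it was 85.0% (73.4 to 92.9) and 80.0% (56.3 to 94.3) in KO, against 96.2% (90.5 to 99.0) and 94.6% (89.2 to 97.8) in WT (exact permutation p = 0.33). Neither pair of groups overlapped. Depth differed, with medians of 7021 and 5809 UMIs in KO dLN members and 8589 and 8184.5 in WT dLN members. With every cell thinned to 1500 UMIs, which left out 90 KO and 65 WT cells of dLN, the dLN shares were 72.5% and 83.3% in KO and 93.7% and 94.6% in WT. In tumour the share was 56.2% and 16.7% in KO and 60.0% and 42.9% in WT, and the groups overlapped (exact permutation p = 0.667). Without KO2, which had 6 mature tumour DC, the difference turned to 4.82 percentage points. Without cells of 20 or more C1q UMIs per 10000 the groups did not overlap. The share was then 33.3% and 0% in KO, of 6 and 1 mature DC. In WT it was 67.6% and 100%, of 34 and 2 mature DC.

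**Figure D3:**
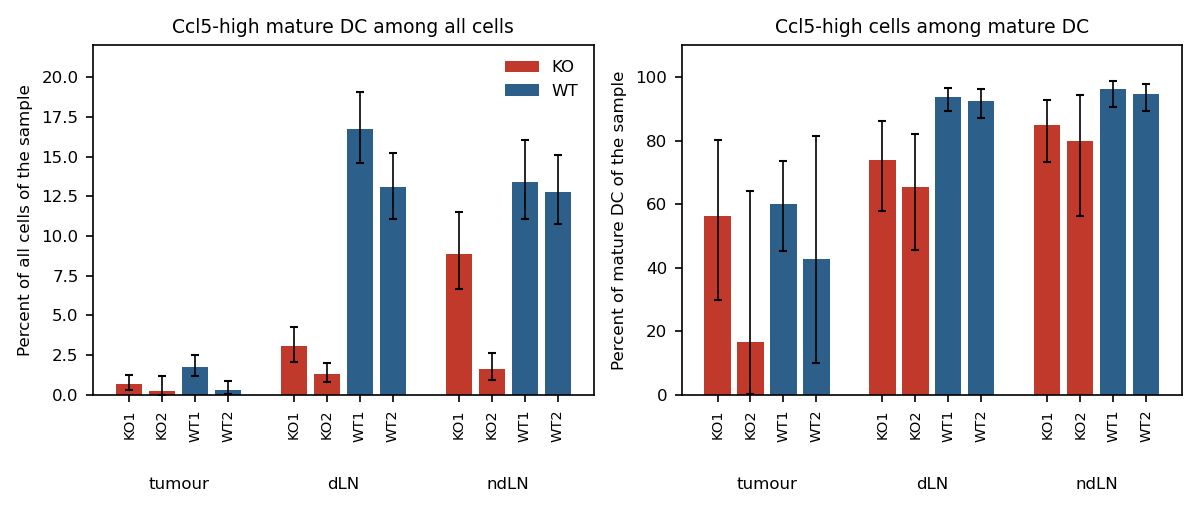
Ccl5-high mature DC in percent of all cells (left) and of mature DC (right) in each of 12 samples; bars are single samples and lines 95% exact binomial intervals. In dLN the KO bars stand at 3.05% and 1.30%, against 16.8% and 13.1% in WT.

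Within the Ccl5-high cells, no gene differed between KO and WT past the threshold in dLN. The limma test was run on per-mouse means of log2(1 + UMIs per 10000), with Benjamini-Hochberg adjustment at 0.05. It called 0 of 7283 genes (0.0%), with 487 at an unadjusted p under 0.05, and limma-voom on the recovered UMIs called 9. The smallest adjusted p was 0.313. The count rested on the KO libraries, since limma called 892 genes without KO1 and 251 without KO2, where 1 KO sample is assumed to vary like the other groups, and 0 without WT1 or without WT2. Requiring 20 cells a sample, which drops KO2 with 19, gave 284.

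The genes with the smallest p in dLN are given as values. Gpr183 was at 0.688 and 1.01 UMIs per 10000 in KO1 and KO2, against 0.125 and 0.227 in WT1 and WT2 (difference 0.37, SE 0.0642, limma adjusted p = 0.313). Ccnd1, which encodes the G1 cyclin D1, was at 2.18 and 2.81 in KO, against 0.985 and 0.613 in WT (difference 0.66, SE 0.126, limma adjusted p = 0.352). In both genes the KO mice lay above the WT mice, as they did in Slc15a4, a lysosomal transporter gene (difference 0.44), Cd1d1, which presents lipids (0.35), and D730003I15Rik (0.19). The mitochondrial genes Slc25a39 (-0.46) and Higd2a (-0.67), Asl (-0.48), which makes arginine, and Pinx1 (-0.22) lay lower in KO.

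Ccl5 was at 203 and 209 UMIs per 10000 in KO dLN, against 299.7 and 341 in WT dLN, and at 228 and 208 in KO ndLN, against 422 and 288 in WT ndLN. As a rule gene it gets no test; the KO values lay below the WT values in both nodes. Ccl22 was at 7.48 and 8.84 in KO dLN, against 10.6 and 10.3 in WT dLN (difference -0.19, SE 0.305, limma adjusted p = 0.927). Clu differed by -0.50 (SE 0.270, limma adjusted p = 0.760) and Il12b by -0.25 (SE 0.121, limma adjusted p = 0.735). Ccl22, Clu and Il12b did not pass.

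Of checkpoint and class II genes in dLN, Cd274 was at 1.48 and 0.578 in KO, against 0.461 and 0.412 in WT (difference 0.30, SE 0.140, limma adjusted p = 0.735). H2-Ab1 was at 5.13 and 8.52 in KO, against 4.13 and 2.34 in WT (difference 0.60, SE 0.202, limma adjusted p = 0.721). Il1b differed by 0.29 (SE 0.117, limma adjusted p = 0.721), Casp1 by -0.10, Cd40 by 0.10 and Ccl17 by 0.07. In Cd274, H2-Ab1 and Il1b the groups did not overlap.

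Groups that did not overlap were frequent in dLN, with KO above WT in 975 genes (13.4%) and KO below WT in 1775 (24.4%), and the median difference over all genes was -0.02. Of 24 stress and immediate early genes tested, 0 passed in either direction, 22 were above 0, 16 had KO above WT without overlap and the median was 0.31. Among them Hspa1a, a heat shock gene whose reads may be shared with its near-copy Hspa1b, was at 12.3 and 15.4 UMIs per 10000 in KO, against 5.28 and 4.67 in WT, and Zfp36, which shortens cytokine mRNAs, was at 18.0 and 9.56 in KO, against 7.22 and 5.81 in WT. In both genes the KO mice lay above the WT mice.

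Of all genes tested in dLN, 41.4% were above 0, 13.4% had KO above WT without overlap and 24.4% had KO below WT without overlap. Of 21 MHC class I genes 17 were below 0 in KO dLN, 6 of them without overlap, with a median of -0.18, and 0 passed. B2m was at 71.3 and 65.8 in KO, against 73.1 and 81.7 in WT. Of 17 costimulatory and checkpoint ligands 15 were above 0 and 9 had KO above WT without overlap (median 0.10). Type I interferon-stimulated genes were above 0 in 15 of 21 (4 without overlap, median 0.02), and Isg15, a ubiquitin-like product, was at 3.78 and 1.44 in KO, against 0.811 and 0.881 in WT. Epsti1 of the same list lay the other way, at 63.2 and 50.2 in KO, against 87.5 and 86.2 in WT. Of 39 genes of the mature DC programme 23 were above 0 (median 0.06), and 0 passed in any list.

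In ndLN limma called 0 of 7283 genes as well (0.0%), with 282 at an unadjusted p under 0.05, a smallest adjusted p of 0.983 and 0 calls by limma-voom. Without KO1 it called 557, and without KO2, WT1 or WT2 it called 0. KO lay above WT without overlap in 793 genes (10.9%) and below in 1661 (22.8%), around a median of -0.02. The genes with the smallest p were Gdpd3 (0.19), Ehf (0.19), Acbd5 (0.24), Rassf3 (0.43) and Add1 (0.33), with KO above WT, and Syne2 (-0.19), Btbd7 (-0.13), Rap2c (-0.29) and Rab11fip4 (-0.12), with KO below WT. Gpr183 differed by 0.02, H2-Ab1 by 0.12, Cd274 by -0.08 and Clu by 0.27.

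By list in ndLN, class I genes were below 0 in 18 of 21 (8 without overlap, median -0.14) and stress genes above 0 in 19 of 24 (4 without overlap, median 0.12). Of all genes tested in ndLN, 42.1% were above 0, 10.9% had KO above WT without overlap and 22.8% had KO below WT without overlap. Costimulatory and checkpoint ligands were above 0 in 4 of 17, and 7 of the 17 had KO below WT without overlap. Type I interferon-stimulated genes were above 0 in 6 of 21, and 11 of the 21 had KO below WT without overlap, beside the 22.8% of all genes. For these last 2 lists most genes lay on the other side of 0 than in dLN, and the difference between nodes was tested gene by gene.

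That test, of KO minus WT in dLN minus KO minus WT in ndLN with limma, called 0 of 7059 genes (0.0%), with 250 at an unadjusted p under 0.05 and 3 by limma-voom; it called 1698 without KO1, 881 without KO2 and 0 without either WT mouse. Among the genes with the smallest p, the interferon-induced Ifitm3 was at 2.03 and 1.56 UMIs per 10000 in KO dLN, against 0.555 and 0.10 in WT dLN, and at 0.182 and 0 in KO ndLN, against 0.728 and 0.890 in WT ndLN (difference 0.60, SE 0.127, limma adjusted p = 0.995). Ifi27l2a (0.56), Slc15a4 (0.48), Gpr183 (0.35) and Kin (0.29) had the same direction. Arhgef3 (-0.38), C2cd5 (-0.27), Arhgef7 (-0.19), Hdlbp (-0.43) and Ap3m1 (-0.29) had the opposite one, and Clu differed by -0.77 (limma adjusted p = 0.995).

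**Figure D4:**
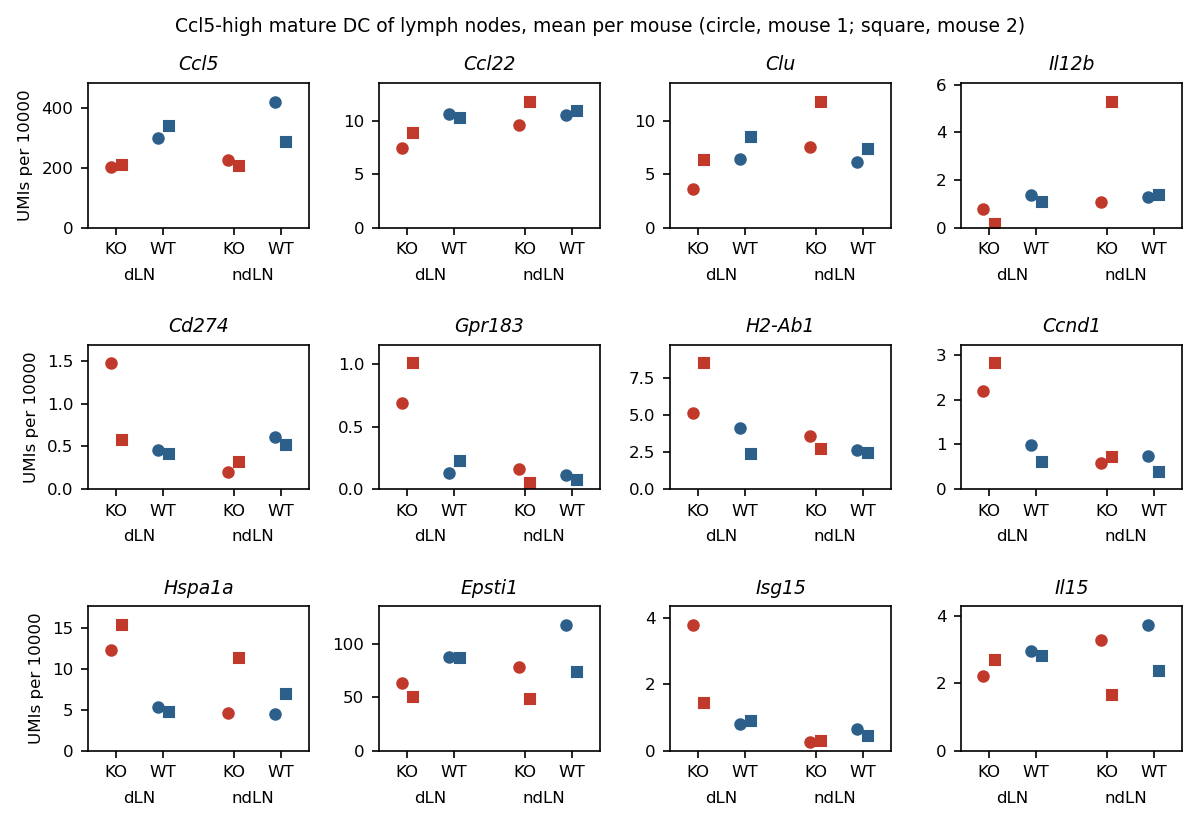
Mean UMIs per 10000 in Ccl5-high mature DC for 12 genes, 1 point a mouse, KO left of WT in dLN and in ndLN. Gpr183, Ccnd1, H2-Ab1 and Hspa1a lie higher in both KO mice than in both WT mice in dLN (Ccnd1 2.18 and 2.81, against 0.985 and 0.613). Ccl5, a rule gene, gets no test, and no other gene shown passed it.

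Between the nodes of the same mice no gene passed the test. With the mouse as a term, limma called 0 of 7059 genes in dLN against ndLN (0.0%), with 277 at an unadjusted p under 0.05 and 0 by limma-voom. The dLN samples lay above the ndLN samples without overlap in 152 genes (2.15%) and below in 38 (0.538%). Dnase1l3, a secreted DNase of DC, was at 0.926 and 0.398 in KO dLN and 1.12 and 0.936 in WT dLN, against 1.84 and 2.30 in KO ndLN and 1.42 and 1.57 in WT ndLN (difference -0.38, SE 0.106, limma adjusted p = 0.935). Ccnd1 (0.43), Parp14 (0.23), Rnase6 (0.15), Gpr183 (0.24) and P2rx4 (0.17) lay higher in dLN by their means, and Far1 (-0.18), Zc3h12c (-0.26), Acbd6 (-0.30) and Fads1 (-0.10) lower.

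Tumour members carried more macrophage, class II, interferon-stimulated and glycolytic transcripts than dLN members, and fewer of Epsti1 and Apol7c. KO1 and WT1 alone had at least 5 members in both tissues, so the limma fit has 2 mice with the mouse as a term and borrows its spread across genes. It called 211 of 7817 genes (2.7%), 184 higher (2.35%) and 27 lower (0.345%) in tumour, while tumour lay above dLN without overlap in 31.9% of genes and below in 16.3%. Leaving aside the rule's genes, 184 rose and 25 fell. The median difference over all genes was 0.04, and 61.6% of genes were above 0. An alternative left out members with a UMI of T, NK or B cell markers (Cd3d, Trac, Nkg7, Cd79b or Ms4a1, where measured). The count was then 9, among them Ifitm3, Ifi27l2a, Cxcl9 and Irf7, which rose, and Apol7c, Epsti1 and Tmsb4x, which fell. That filter holds no macrophage gene, and it left 7 tumour members in KO1 and 22 in WT1. Without the mouse as a term the count was 0.

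All 11 tested macrophage markers rose. A gene was tested if 5% of the tumour and dLN members together had a UMI, so genes seen mainly in tumour members could enter. The direction of such genes is partly set by this filter, here and in the lists below. In dLN against ndLN, 5 macrophage markers, 17 type I interferon-stimulated genes and 11 chemokine ligands were tested. C1qb, which encodes a complement chain of macrophages, was at 59.1 and 15.9 UMIs per 10000 in tumour of KO1 and WT1, against 0 and 0.594 in dLN (difference 3.14, SE 0.493, limma adjusted p = 0.00112). The C1q-rich cells described above were 7 of the 9 tumour members of KO1 and 7 of the 30 of WT1. The part of macrophage RNA in the other differences was not tested, and values of cells with little C1q (under 20 C1q UMIs per 10000) are given beside some of them; in WT1 these were 23 tumour and 189 dLN members. Lyz2 (2.84), C1qc (2.80), C1qa (2.77) and Apoe (2.60) had the largest differences after C1qb together with Ifitm3 (2.77).

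Of 27 type I interferon-stimulated genes 12 rose and 1 fell (median 0.52). Ifitm3, which blocks viral entry, was at 29.6 and 11.2 in tumour of KO1 and WT1, against 2.03 and 0.555 in dLN (SE 0.372, limma adjusted p = 0.000332). Irf7, a master factor of interferon genes, rose by 1.54, Ifi27l2a by 2.29 and Isg15 by 1.25; Epsti1 fell by 2.43. In WT1 members with little C1q, Ifitm3 was at 7.39 in tumour, against 0.29 in dLN, and Irf7 at 4.45 in tumour, against 0.03 in dLN. Both genes were at 0 in the 2 tumour members of KO1 with little C1q, so the higher values in such cells are those of 1 mouse.

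Of 17 glycolysis and hypoxia genes 7 rose (median 0.76), among them Ldha, which makes lactate, by 1.96 and Pkm by 1.89. Of 14 class II genes 5 rose (median 1.10), with H2-Ab1 at 41.6 and 14.3 in tumour of KO1 and WT1, against 5.13 and 4.13 in dLN (difference 2.15, SE 0.439, limma adjusted p = 0.00700). Of 17 chemokine ligands 8 rose, among them the interferon-inducible Cxcl9 (1.78) and Cxcl10 (0.88), the monocyte attractant Ccl2 (0.98) and Ccl4 (0.97), which attracts T cells and macrophages. In WT1 members with little C1q the tumour minus dLN difference was 0.03 in Ccl2, 0.13 in Ccl4 and 0.65 in H2-Ab1, and 0.98 in Cxcl9 and 0.67 in Cxcl10. The differences of Ccl2, Ccl4 and H2-Ab1 were thus smaller in these cells than over all members. Ccl22 did not pass (difference -0.16, limma adjusted p = 0.906). Among cytokine genes Il1b rose by 1.02, and Il12b had a difference of 0.74 (limma adjusted p = 0.141).

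The mature DC programme had 35 of 39 genes below 0 in tumour, of which 7 fell, rule genes included (median -0.76). Of all genes tested in tumour against dLN, 61.6% were above 0. These list values cover all members, of which 7 of 9 were C1q-rich in KO1 tumour. Apol7c, of the apolipoprotein L family, was at 5.54 and 3.74 in tumour of KO1 and WT1, against 26.3 and 26.4 in dLN (difference -2.72, SE 0.423, limma adjusted p = 0.00104). Epsti1 was at 32.7 and 13 in tumour, against 63.2 and 87.5 in dLN (difference -2.43, SE 0.338). The class I-like gene H2-M2 fell by 2.28, Tmem176a by 1.66, Tmem176b by 1.61, Tmem123 by 1.61, Lsp1 by 1.53 and Hspa1a by 1.64. The costimulatory ligand gene Icosl fell by 0.92.

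Tumour members with little C1q could be set against dLN members with little C1q in WT1 alone, with 23 tumour and 189 dLN cells at median depths of 9410 and 8589 UMIs, and with 1 mouse there is no test. The genes named here were chosen after their values were seen. Il12b was at 12.1 UMIs per 10000 in these tumour cells, against 1.39 in dLN, and was found in 65.2% of them, against 23.8% in dLN. Cd83 was at 12.8, against 4.78 in dLN, and Cst3, which encodes the protease inhibitor cystatin C, at 285, against 91.5. Stat4, which carries the interleukin 12 signal, was at 7.57, against 0.56 in dLN, Nfil3 at 4.60, against 0.28, and Irf8 at 18.0, against 4.85.

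Of checkpoint and costimulatory genes in the same cells, Cd274 was at 3.01 in tumour, against 0.46 in dLN, Pdcd1lg2, the gene of PD-L2, at 2.94, against 0.11, and Cd80 at 1.87, against 0.20. Cd40 was at 4.03 in tumour, against 5.09 in dLN. Clu was at 0.05 in tumour, against 6.48 in dLN, Apol7c at 4.36, against 26.7, Epsti1 at 10.5, against 88.1, and Ccl5 at 99.7, against 302. Ccr7, a rule gene, was at 47.0 in tumour, against 15.5 in dLN. Clec9a was found in 26.1% of these tumour cells, against 5.29% in dLN, and Xcr1 in 0, against 1.06%.

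These values are of WT1 only. In the 2 tumour members of KO1 with little C1q, Il12b, Stat4, Nfil3 and Cd274 were at 0 and Irf8 was at 1.18 UMIs per 10000. Over all members of KO1, Il12b was at 0.758 in tumour, against 0.770 in dLN, Cd83 at 2.24, against 6.55, Ccr7 at 4.94, against 22.4, and Clu at 10.9, against 3.62. Cd83, Ccr7 and Clu thus lay on the other side in KO1 than in WT1, in members of which most were C1q-rich in tumour.

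In the C1q-rich tumour members of WT1, Il12b was at 1.28 and Cd83 at 3.34 UMIs per 10000, with 7 cells. KO1 had 2 tumour members with little C1q and KO2 had 0. Gene levels of KO and WT tumour members of this kind were therefore not compared. The planned test of KO against WT genes in tumour could not be made with 1 mouse of each genotype above 5 cells.

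**Figure D5:**
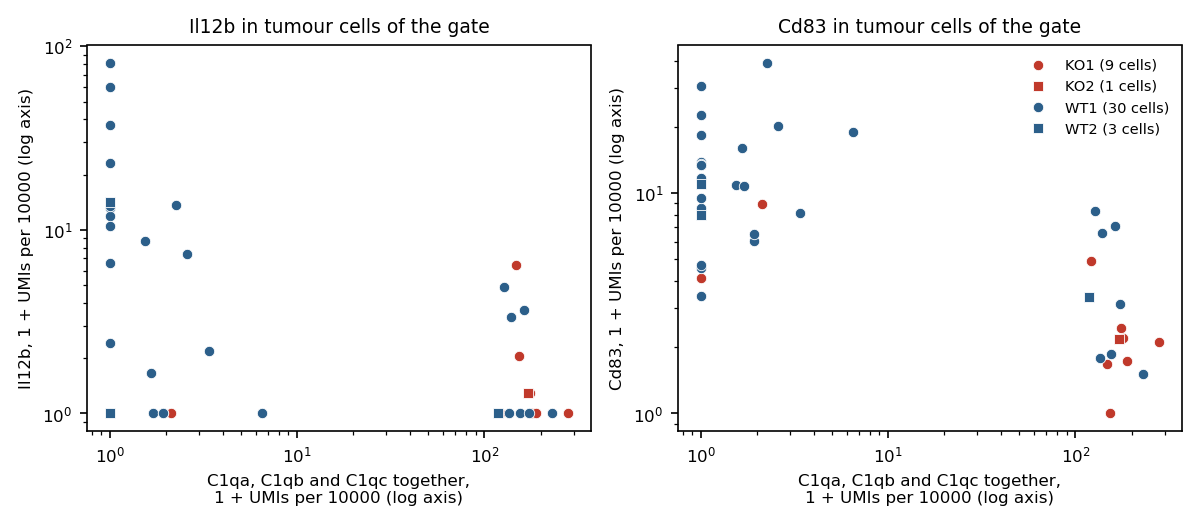
Il12b (left) and Cd83 (right) against the C1q genes together in the 43 tumour members, as 1 + UMIs per 10000 on log axes; each point is a cell of KO1, KO2, WT1 or WT2. In the gap between 5.54 and 117 C1q UMIs per 10000 there is no cell, and 8 of 10 KO cells and 8 of 33 WT cells lie right of it.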

How the data were processed

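The authors deposited a matrix of natural log values of 1 + UMIs per 10000 UMIs in the cell, covering 12638 genes and 12458 cells of 12 samples, and a list that names each cell's mouse and tissue. Reads had been processed with Cell Ranger 3.0.2 and the build mm10, per the submitters' processing notes; how cells, genes and hash tags were filtered is not given in the sources used here. All values were whole multiples of 1 UMI within 0.01, so UMIs were recovered.

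The members and gene lists were chosen with earlier results of these data known. Per-mouse means of log2(1 + UMIs per 10000) over members were tested (limma 3.58.1 with trend, R 4.3.3) for samples with at least 5 members (10 samples, 709 members) and genes with a UMI in 5% of the members. Two-sided p values were adjusted with the Benjamini-Hochberg method over the genes of each of 5 comparisons. A count model had not been the planned test because the deposited unit is a log, and limma-voom on the UMIs was an alternative. The planned KO against WT test in tumour could not be made. Shares were compared by an exact permutation test over mice. The steps were tested on simulated data.

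Mice with the same number share a droplet channel, per the labels. Their deviations correlated at 0.284 in dLN and 0.0775 in ndLN, and a fit with the number as a term is given among the alternatives. No doublet caller was run, and 52 members with a UMI of T, NK or B cell markers were removed as an alternative. Mice of 1 genotype differ in animal and in channel.

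In each comparison up to 10 genes a direction are named, by size, that passed the test, had separate groups and a mean over that of the median gene. Comparisons with under 5 such genes are described by 5 a direction, ranked on p, rule genes aside. Members of the lists that passed, up to 4 others a list with the highest mean, and 10 fixed genes such as Il12b and Cd274 were added. For Ccl5-high against Ccl5-low cells the 15 largest differences of 1 sign in all samples are named in each direction. A gene that passed in tumour against dLN is not reported here. Promoter sequences are from RefSeq.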

Additional observations from a re-analysis of the deposited data

How the results depend on the processing

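The numbers of genes that differed between KO and WT depended on the KO libraries. In dLN limma called 0 genes, 9 with limma-voom, 284 with at least 20 cells a sample, and 0 to 892 when each mouse was left out in turn. In ndLN leaving out each mouse gave 0 to 557. For the difference between the nodes limma-voom gave 3, at least 20 cells a sample 881, the cell number as weight 1, and leaving out each mouse 0 to 1698. With the mouse number as a replicate block, a term for the shared droplet channel, limma called 0 genes in dLN and 0 in ndLN. For tumour against dLN, 211 genes in the fit given became 0 with no replicate block, 355 without the filter on detection and 771 with limma-voom. They became 349 with a pseudocount of 0.1, 457 with the cell number as weight and 9 without cells with a UMI of T, NK or B cell markers. Leaving out each mouse moved the KO minus WT share of Ccl5-high cells among mature DC of tumour from -34.8 to 4.82 percentage points, the last without KO2, and the share among all tumour cells from -1.34 to 0.139. Leaving out cells with 20 or more C1q UMIs per 10000 ended the overlap of KO and WT in both tumour shares, with 2 and 0 members left in KO. Causes were not tested.

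Of the values of named genes in tumour against dLN, 582 kept their direction and side of the threshold, 177 lost it, 7 gained it and 6 moved. The gene test of KO against WT in tumour was not run under any alternative. That of tumour against dLN was not run with at least 10 or 20 cells a sample, without KO1 or WT1, or without cells rich in C1q. Having 2 mice a group keeps every exact permutation p of the shares at 0.33 or more, and KO2 had 1 tumour and 19 dLN members.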

Other observations

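Some gene pairs moved together from cell to cell within the WT node libraries. Pearson correlations of log2(1 + UMIs per 10000) over cells with at least 3000 UMIs are given as the lowest and highest of 4 libraries. The cells of a library share its preparation and the scaling to 10000. Epsti1 went with Zmynd15 (0.51 to 0.62) and with the stress-induced Gadd45b (0.64 to 0.75), and against Gpx1 (-0.68 to -0.45). The metal-binding genes Mt1 and Mt2 went together at 0.64 to 0.68. Epcam, which Langerhans cells carry, went with the haem-binding gene Hebp1 (0.34 to 0.47) and against the granule proteoglycan gene Srgn (-0.55 to -0.39) and Npc2 (-0.49 to -0.39), and with Cd207 at 0.21 to 0.43. These pairs were picked after their values were seen.

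Other genes reported on mature DC were rare in the members. Ccl19, a ligand of Ccr7, was found in 11.1% of the 713 members, Il6 in 11 cells (1.54%) and Il10 in 1 cell (0.140%). Il12b and Il15 were found together in 146 members (20.5%), and Ccl17 in 261, of which 244 also held Ccl22.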
